A study of Mus musculus with 12 samples.

Results

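Iron-sulfur cluster assembly genes encode the mitochondrial machinery that builds clusters of iron and sulfur and fits them into enzymes. The 9 genes described are Nfs1, Lyrm4, Iscu, Hscb, Glrx5, Isca1, Isca2, Bola3 and Nfu1, taken from the unnormalized array table wherever the gene symbol equalled one of these names. Of these 9, 8 had a probe among the 18117 gene symbols of the table, and 7 of the 10967 genes tested were members. Isca2 had no probe under this symbol, and the only probe of Lyrm4 was not above background.

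The arrays measured total RNA from ileum tumours of FVB/N mice aged 3 to 4 months, on Illumina bead arrays with biotin label. All animals were APCmin, a mutant form of Apc that gives mice intestinal adenomas. The labels gave 6 arrays to FVBN/APCmin, numbered 1 to 6, and 6 to iPGC-1β/APCmin, numbered 7 to 12. PGC-1β is a coactivator known to raise mitochondrial gene expression, and the labels describe neither the iPGC-1β construct nor the promoter that drives it. Nothing states that the tumours came from separate animals, so p-values measure the spread between these samples, which may be technical.

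Clusters form on a scaffold protein, to which a cysteine desulfurase delivers sulfur. A chaperone pair then hands the cluster to a carrier protein, and late factors convert it and deliver it to target enzymes. These targets include subunits of respiratory complexes I to III and lipoyl synthase, which makes the lipoic acid that pyruvate dehydrogenase needs. Such enzymes serve the mitochondrial metabolism for which absorptive gut epithelium is known, and loss of several of the assembly factors causes mitochondrial disease in humans.

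RefSeq promoter windows (GRCm38.p6, 250 bases before to 50 after a gene's start) existed for 7 of the 9 members, in 9 windows because Bola3 has 3 starts. Iscu and Hscb had no window and were not searched. The 9 windows were searched on both strands for letters bound by factors that work with PGC-1 coactivators. These were the estrogen-related receptor extended half-site TNAAGGTCA, the NRF1 site, which is GCGC, any base and TGCGC, and the GABP site CCGGAAGT. Their matches do not overlap in the windows shown. Windows of 4 members are printed because Bola3, Glrx5 and Isca1 showed large differences between the genotypes below and the difference of Nfs1 was near 0. Capitals mark the matches.
Isca1, chr13:59769740-59770039, minus strand: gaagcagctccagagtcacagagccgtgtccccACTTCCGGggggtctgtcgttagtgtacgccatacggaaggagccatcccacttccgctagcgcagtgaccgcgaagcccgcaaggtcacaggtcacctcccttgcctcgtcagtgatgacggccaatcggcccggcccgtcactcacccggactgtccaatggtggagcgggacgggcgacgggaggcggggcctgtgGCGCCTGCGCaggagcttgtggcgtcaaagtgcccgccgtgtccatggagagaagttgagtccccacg
Bola3, chr6:83348897-83349196, plus strand, the most upstream start: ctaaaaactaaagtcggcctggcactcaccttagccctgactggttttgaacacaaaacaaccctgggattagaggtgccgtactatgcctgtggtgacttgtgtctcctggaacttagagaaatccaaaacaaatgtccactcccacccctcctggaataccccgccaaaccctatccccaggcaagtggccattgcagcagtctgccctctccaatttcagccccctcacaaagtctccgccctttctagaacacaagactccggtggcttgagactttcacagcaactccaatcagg
Glrx5, chr12:105032368-105032667, plus strand: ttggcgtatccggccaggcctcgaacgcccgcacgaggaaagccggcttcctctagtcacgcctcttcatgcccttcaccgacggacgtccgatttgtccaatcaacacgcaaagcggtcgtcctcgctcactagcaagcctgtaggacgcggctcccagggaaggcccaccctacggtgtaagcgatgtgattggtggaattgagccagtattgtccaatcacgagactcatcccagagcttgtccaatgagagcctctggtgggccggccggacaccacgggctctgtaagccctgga
Nfs1, chr2:156144137-156144436, minus strand: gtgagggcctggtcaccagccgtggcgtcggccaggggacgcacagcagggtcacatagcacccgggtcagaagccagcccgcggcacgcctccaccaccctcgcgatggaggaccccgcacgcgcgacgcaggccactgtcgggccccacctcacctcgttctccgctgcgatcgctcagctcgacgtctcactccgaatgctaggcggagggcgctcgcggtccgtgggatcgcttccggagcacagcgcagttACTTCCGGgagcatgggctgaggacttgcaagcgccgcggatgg

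The Isca1 window held an NRF1 match beginning at position -18 and a GABP match on the other strand beginning at position -217, counted from 0 at the gene's start. The Nfs1 window held a GABP match on the other strand at position 6, and that of Nfu1 an NRF1 match on the other strand at position 40. No window of Bola3, Glrx5, Lyrm4 or Isca2 held any of the 3 letter patterns, and no member's window held the extended half-site. The shorter AAGGTCA inside it, present in the Isca1 window, was not searched for. Of the 32851 RefSeq windows searched, 1.28% held the extended half-site, 4.6% the NRF1 letters and 3.89% the GABP letters. A match describes the letters only.

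The comparison asked how far these genes differed between iPGC-1β/APCmin and FVBN/APCmin tumours, the latter called control arrays here. Values are log2 levels after background correction and quantile normalization, and differences are iPGC-1β/APCmin minus FVBN/APCmin with n = 6 arrays per group. Bola3 and Iscu rose, Glrx5 and Isca1 were higher by a smaller amount and lay just outside the threshold, and the difference of Nfs1 was near 0 with an interval on both sides of it. The threshold was a limma adjusted p below 0.05 over all 10967 genes. Thus 2 of the 7 tested members rose and 0 fell, where 3.45% of all genes passed, 2.22% rising and 1.23% falling. At an unadjusted limma p below 0.05 the higher members were Bola3, Iscu, Glrx5 and Isca1, and 11.5% of all genes were higher at that level. The members' median difference was 0.78, against -0.01 over all genes tested, and 6 of the 7 differences were positive, as were 48.6% over all genes. With whole-tissue RNA, fewer cells of a type and less RNA per cell cannot be told apart.

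**Figure D1:**
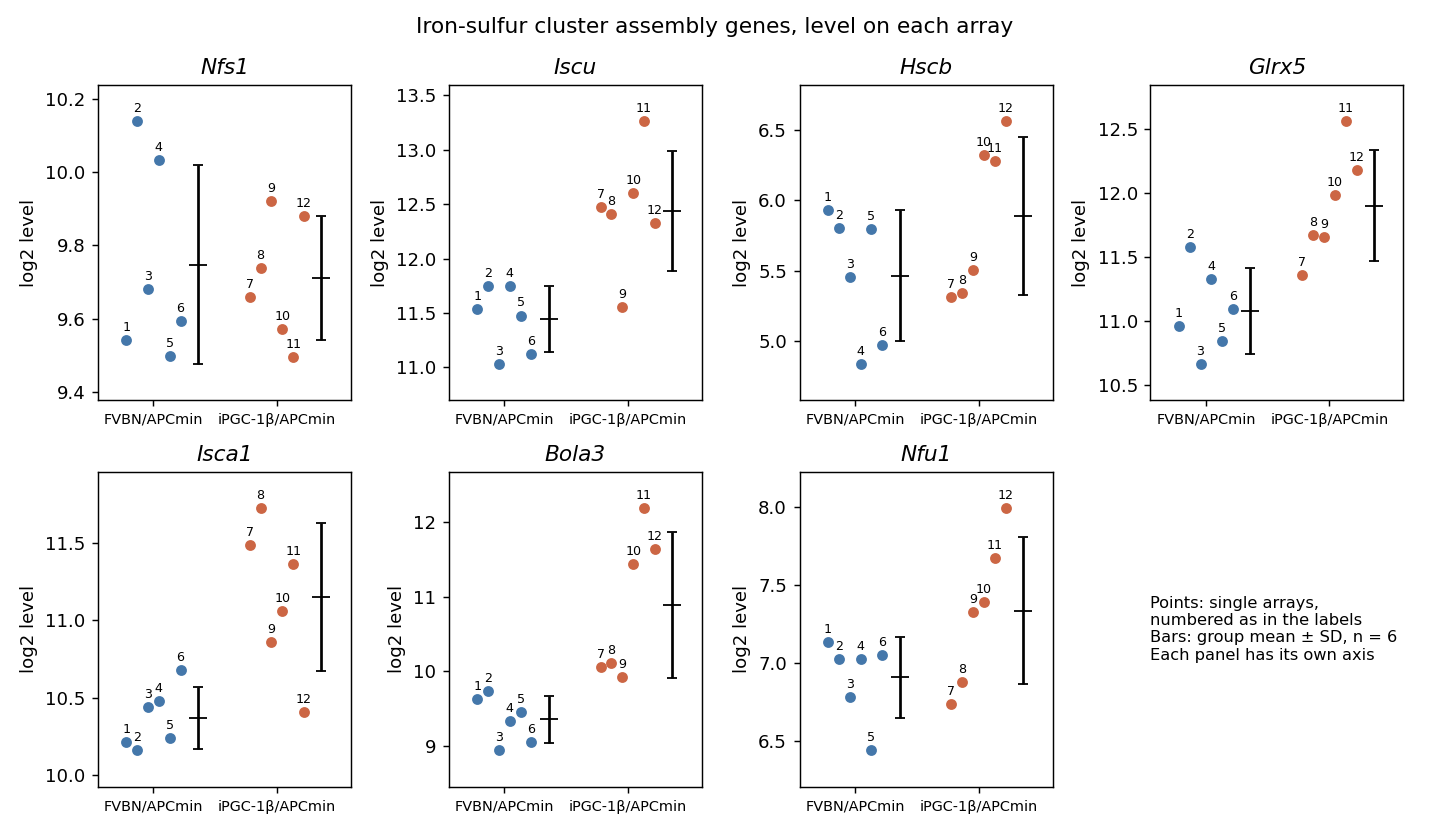
Log2 level (vertical axis, one scale per panel) of the 7 tested members on each array, by genotype (horizontal axis), with array numbers and group mean ± SD (n = 6 per group). All iPGC-1β/APCmin points of Bola3 lie above all FVBN/APCmin points, 5 of 6 do for Iscu, Glrx5 and Isca1, and the groups of Nfs1 overlap.

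Some arrays stood apart before any member was considered. The Ppargc1b probe, for the gene that encodes PGC-1β, was not higher on the arrays labelled iPGC-1β/APCmin (difference -0.55, SE 0.30, limma adjusted p = 0.296). Whether this probe reads RNA of the transgene is not known, so this value does not check the transgene, and directions follow the labels. Levels of the T, NK, B and plasma cell markers, each gene centred over the 12 arrays, were 1.35 to 1.68 on arrays 1 to 5 and -2.13 to -1.11 on arrays 8 to 12. Array 6 was at -0.84 and array 7 at 1.82, each nearer to the other genotype. Of these markers 12 of 16 T and NK cell genes were tested, all lower and 5 past the threshold, with a level between -0.56 and 1.54 on control arrays and between -1.94 and 1.16 on the others. None of the 11 tested B and plasma cell markers passed in limma, although all 11 were lower, 10 of them at an unadjusted p below 0.05 (levels -1.15 to 1.93 against -2.37 to 2.54). Over all genes 1.23% were lower past the threshold, and the share lower at an unadjusted p below 0.05 was not counted. The 3 of 9 neutrophil and mast cell markers tested, S100a8, Mcpt1 and Cpa3, were higher without passing (-1.56 to 0.95 against -1.67 to 2.87). Mcpt1 and Cpa3 were higher at an unadjusted p below 0.05, as were 11.5% of all genes. S100a8 and Cpa3 were near background on control arrays, with medians of 4.88 and 4.74. On the others S100a8 had a median of 5.88 and a highest value of 12.29. Cd8a and Gzmb, Pax5, and the red cell markers Alas2, Slc4a1 and Epb4.2 failed the detection filter. The 9 tested markers of intestinal epithelium included Vil1, Krt8 and Krt20. Of the 9, 7 were lower, none past the threshold in limma and 4 (Vil1, Krt19, Krt20 and Cdx1) at an unadjusted p below 0.05, and their level lay between -0.07 and 0.47 on control arrays and between -0.37 and 0.07 on the others. Of 7 endothelial markers 4 were higher and 3 lower, none past the threshold in limma and Cdh5, Esam, Eng and Tek (higher) and Cldn5 (lower) at an unadjusted p below 0.05, with a level between -0.27 and 0.03 on control arrays and between -0.11 and 0.57 on the others. Median raw intensity ran from 139.3 to 170.5 and 12858 to 14445 of the 25697 probes were detected per array. The part of these differences in the results below was tested only by the covariates and omissions named there.

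The sulfur donor and the scaffold come first. Nfs1 encodes the cysteine desulfurase that releases sulfur from cysteine. Its log2 level had a lowest, median and highest value of 9.50, 9.64 and 10.14 in FVBN/APCmin and of 9.49, 9.70 and 9.92 in iPGC-1β/APCmin. The groups overlapped over nearly their whole range, with arrays 2 and 4 of the control genotype highest. The difference was -0.04 (SE 0.16, 95% confidence interval -0.37 to 0.30, limma adjusted p = 0.913), an interval that leaves room for a change of either sign. Nfs1 had 3 probes, and the others differed by 0.17 and 0.07 (limma adjusted p = 0.669 and limma adjusted p = 0.877 over all kept probes), so the sign was not shared.

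Lyrm4 encodes ISD11, the small partner that keeps the desulfurase stable. Its probe was detected on 0 of 12 arrays, with detection p-values of 0.105 to 0.904 and raw intensities of 118.7 to 157.4. It was therefore not well above background in either genotype, and no difference is given.

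Iscu encodes the scaffold on which the cluster is put together. Its lowest, median and highest log2 levels were 11.03, 11.51 and 11.75 in FVBN/APCmin and 11.55, 12.44 and 13.26 in iPGC-1β/APCmin. Array 11 was highest, and 5 of the 6 iPGC-1β/APCmin arrays lay above every control array. The exception was array 9, whose 11.55 fell within the control range. Iscu rose by 0.99 (SE 0.24, 95% confidence interval 0.47 to 1.51, limma adjusted p = 0.0406), a fold of 1.99, from 11.44 ± 0.30 to 12.44 ± 0.55 (SD, n = 6 each). The exact two-sided permutation p over 924 relabelings was 0.00649, unadjusted like all permutation p-values here. When each array was dropped in turn, the call held in 3 of 12 fits (array 6, 7 or 9 dropped) and was lost in the other 9, at 0.83 to 1.05.

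The chaperone and the carrier stand between the scaffold and the late factors. Hscb encodes the co-chaperone that brings the loaded scaffold to the heat shock protein mortalin. Its lowest, median and highest log2 levels were 4.84, 5.63 and 5.93 in FVBN/APCmin and 5.32, 5.89 and 6.56 in iPGC-1β/APCmin. Arrays 10, 11 and 12 were above every control array, and arrays 7, 8 and 9 were within the control range. The difference of 0.42 did not pass (SE 0.28, 95% confidence interval -0.18 to 1.02, limma adjusted p = 0.393). This probe was near background, detected on 4 of 6 control and 6 of 6 iPGC-1β/APCmin arrays, and the other Hscb probe was detected on 0 of 12.

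Glrx5 encodes the monothiol glutaredoxin that accepts the cluster from the scaffold. Its lowest, median and highest log2 levels were 10.67, 11.03 and 11.58 in FVBN/APCmin and 11.35, 11.82 and 12.56 in iPGC-1β/APCmin. Array 7 was the one array of the latter genotype inside the control range, and array 11 was highest. The difference was 0.82 (SE 0.22, 95% confidence interval 0.36 to 1.29), a fold of 1.77, and missed the threshold narrowly (limma adjusted p = 0.0516, exact permutation p = 0.00433). Without array 7 it was 0.93 and passed (limma adjusted p = 0.0106), in a fit where 1821 genes passed in place of 378.

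Among the late factors, Isca1 encodes an A-type protein needed, in work on human cells, to make the larger clusters of mitochondrial enzymes. Its lowest, median and highest log2 levels were 10.16, 10.34 and 10.68 in FVBN/APCmin and 10.41, 11.21 and 11.73 in iPGC-1β/APCmin. Arrays 8, 7 and 11 were highest in that order, and array 12 lay inside the control range. The difference was 0.78 (SE 0.21, 95% confidence interval 0.34 to 1.23), a fold of 1.72, again just short of the threshold (limma adjusted p = 0.0536, exact permutation p = 0.00866). Without array 12 it was 0.93 and passed (limma adjusted p = 0.0181). It also passed without array 6 (0.85, limma adjusted p = 0.0403) and without array 7 (0.72, limma adjusted p = 0.0372). In those fits 727 and 1821 genes passed, in place of 378.

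Bola3 encodes a late factor that helps to pass clusters to lipoyl synthase and to respiratory enzymes. Its lowest, median and highest log2 levels were 8.94, 9.39 and 9.74 in FVBN/APCmin and 9.92, 10.78 and 12.19 in iPGC-1β/APCmin. The groups did not overlap, which held for 1 of the 7 members and, in this direction, for 1.93% of all genes. Arrays 10, 11 and 12 were at 11.44, 12.19 and 11.63, clear of arrays 7, 8 and 9 at 10.06, 10.12 and 9.92. Bola3 rose by 1.54 (SE 0.37, 95% confidence interval 0.74 to 2.34, limma adjusted p = 0.0402), a fold of 2.90, from 9.36 ± 0.32 to 10.89 ± 0.98 (SD, n = 6 each). Its exact permutation p of 0.00216 was the smallest that 924 relabelings can give, a value that any gene without overlap has. It kept its call in 4 of 12 fits with an array dropped (array 6, 7, 8 or 9) and lost it in the other 8, at 1.28 to 1.61.

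Nfu1 encodes a carrier that delivers clusters to lipoyl synthase and to respiratory enzymes. Its lowest, median and highest log2 levels were 6.44, 7.02 and 7.13 in FVBN/APCmin and 6.74, 7.36 and 7.99 in iPGC-1β/APCmin. Arrays 9 to 12 were above every control array and arrays 7 and 8 were not. The difference of 0.42 did not pass (SE 0.23, 95% confidence interval -0.07 to 0.92, limma adjusted p = 0.292).

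**Figure D2:**
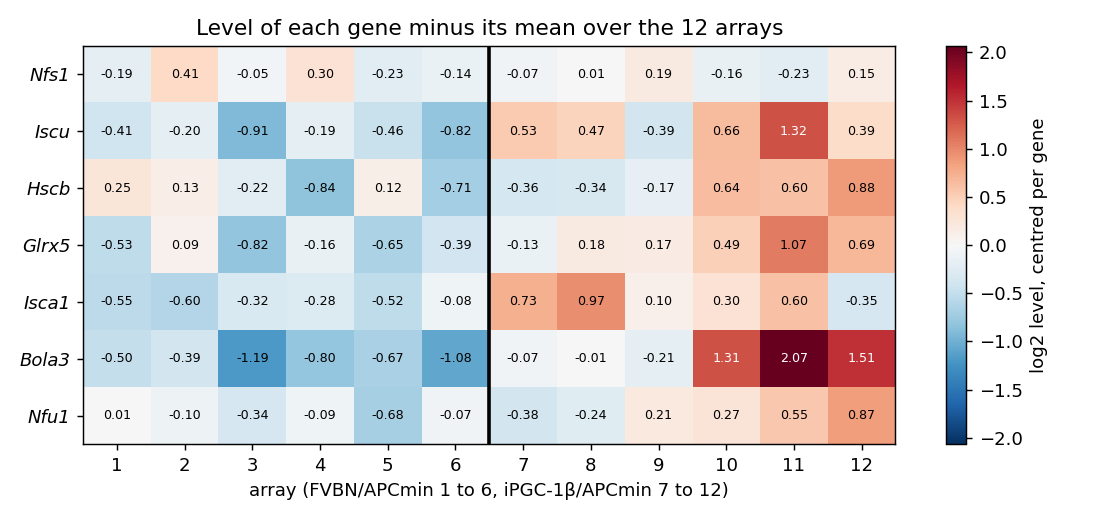
Log2 level of each tested member (rows) minus its own mean, on each array (columns, FVBN/APCmin left of the line and iPGC-1β/APCmin right of it). Hscb, Glrx5, Bola3 and Nfu1 are highest on arrays 10 to 12, Isca1 on arrays 7, 8 and 11, and Nfs1 shows no side.

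The arrays labelled iPGC-1β/APCmin did not share one pattern. Averaged over the 7 members after centring, the level was -0.55 to -0.09 on the control arrays, -0.01 to 0.15 on arrays 7 to 9, and 0.50, 0.85 and 0.59 on arrays 10, 11 and 12. Glrx5 and Iscu were also highest on array 11, while Isca1 on array 12 and Nfs1 on array 11 were below their own means. Arrays 10, 11 and 12 had the fewest detected probes, with 13117, 12858 and 13434. The level of the red cell markers Hba-a1 and Hbb-b1 was -2.05 to 0.13 on control arrays and -1.75 and -0.02 on arrays 7 and 8. It was 1.05, 0.90 and 2.32 on arrays 10 to 12, above every control array. It was highest on array 9 (4.02), where the members' level was lowest among the arrays of that genotype. Both markers were higher at an unadjusted limma p below 0.05, as were 11.5% of all genes, and neither passed the threshold. The part of probe detection and blood in these levels was not tested.

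Arrays 6 and 7, which stood apart in lymphocyte markers, bear on the calls more than on the sizes. Without both, 4 of the 7 members passed. Bola3 was then higher by 1.64, Glrx5 by 0.93, Iscu by 0.92 and Isca1 by 0.78 (limma adjusted p = 0.0115, 0.0134, 0.0332 and 0.0298), among 2184 genes past the threshold in place of 378. In that fit 9.63% of all genes were higher and 10.3% lower past the threshold. Adjusting all 12 arrays for the lymphocyte level left 0 of the 7 past the threshold in limma, while 5 of all genes did. That level followed genotype on all arrays but 6 and 7, so this fit can separate level from genotype mainly through those arrays. The SE was 0.33 for Iscu and 0.53 for Bola3 with the covariate, against 0.24 and 0.37 without it. At an unadjusted p below 0.05 the higher members in that fit were Iscu, Isca1 and Bola3, where 5.01% of all genes were higher at that level. Their differences with the covariate were 1.24 for Iscu, 0.82 for Isca1 and 1.47 for Bola3, each with a 95% confidence interval above 0 and a limma adjusted p of 0.187, 0.354 and 0.337. Glrx5 stood at 0.65 (95% confidence interval -0.0042 to 1.31), and Nfu1 shrank from 0.42 to 0.18.

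**Figure D3:**
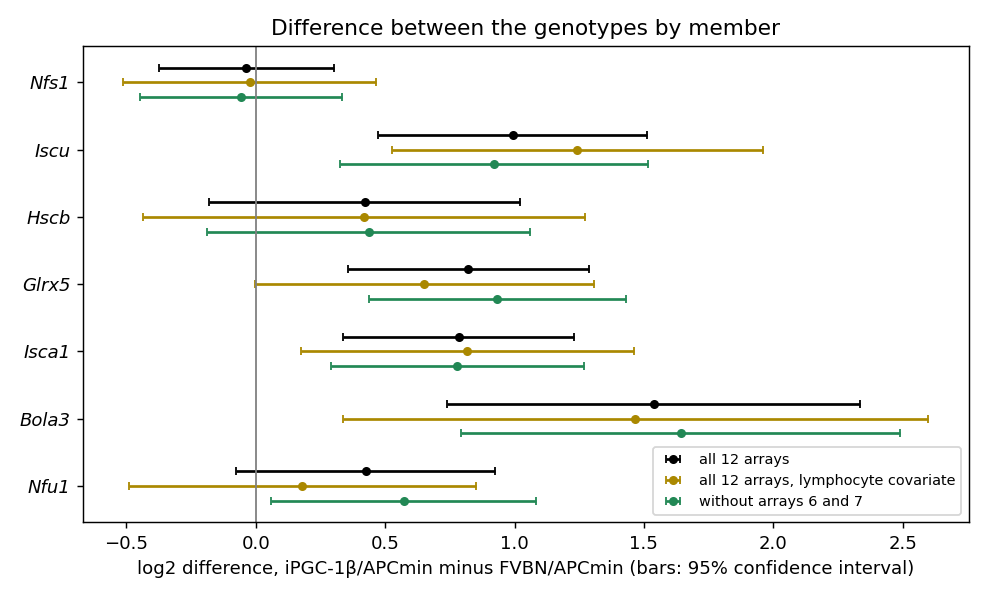
Log2 difference (horizontal axis, iPGC-1β/APCmin minus FVBN/APCmin) with its 95% confidence interval for each tested member (vertical axis), over all 12 arrays, with the lymphocyte marker level as a covariate, and without arrays 6 and 7. Intervals of Iscu, Isca1 and Bola3 lie above 0 in all 3 fits, and those of Nfs1 and Hscb span 0 in all 3.

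Most of the other mitochondrial assembly genes had a positive difference, without single calls. Of 12 listed, 8 were tested, 7 were higher, and none passed, with a median difference of 0.55. Over all genes 48.6% were higher. The largest differences by rule were those of Grpel1, the nucleotide exchange factor of mortalin (0.99, limma adjusted p = 0.0987), and Ndufab1, the acyl carrier protein that binds the desulfurase complex (0.82, limma adjusted p = 0.102). Hspa9, which encodes mortalin itself, differed by 0.61 (limma adjusted p = 0.0646). Gfer, a sulfhydryl oxidase of the intermembrane space, differed by -0.72 (limma adjusted p = 0.225). At an unadjusted p below 0.05 there were Hspa9, Grpel1 and Ndufab1, where 11.5% of all genes were higher at that level. The same 3 of 8 passed without arrays 6 and 7, a fit in which 9.63% of all genes were higher past the threshold. The cytosolic assembly genes, which serve enzymes outside mitochondria, had 10 of 11 tested, 8 higher and none past the threshold, with a median of 0.36. Ciao2a (in the file under its clone name) differed by 0.95 (limma adjusted p = 0.0538), Ciapin1 by 0.61 (limma adjusted p = 0.0759), Ciao1 by 0.68 (limma adjusted p = 0.132) and Ciao2b by 0.60 (limma adjusted p = 0.344). The first 3 of these were below 0.05 before adjustment, where 11.5% of all genes were higher at that level. Ciao2a, 1 of the 10 tested, passed without arrays 6 and 7, near the 9.63% of all genes higher in that fit. Its control levels of 4.87, 5.28 and 5.90 (lowest, median and highest) were close to those of Hscb, which was near background.

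Of 10 tested genes for mitochondrial proteins that hold a cluster, 3 rose, 1 fell and 6 did not pass, with a median difference of 0.72. Over all genes 2.22% rose and 1.23% fell in this fit on all 12 arrays. The number of the 10 that rose was 1 without array 1, 3, 5 or 11 and 6 without array 7. The background changed too, from 243 genes of 10967 that rose over all arrays. It was 92 to 113 without array 1, 3, 5 or 11 and 848 without array 7. Ndufv2, a complex I subunit that takes up electrons from NADH, had lowest, median and highest log2 levels of 11.61, 11.86 and 12.09 in FVBN/APCmin and 12.70, 12.96 and 13.42 in iPGC-1β/APCmin. Ndufv2 rose by 1.14 (SE 0.16, limma adjusted p = 0.00305) and its partner Ndufv1 by 0.73 (SE 0.16, limma adjusted p = 0.0244), both without overlap. In this direction 1.93% of all genes were without overlap. Etfdh, which passes electrons from fatty acid oxidation to ubiquinone and was named after its values were seen, rose by 1.04 (limma adjusted p = 0.0454). Mocs1, which starts the synthesis of molybdenum cofactor, fell by 0.94 (SE 0.19, limma adjusted p = 0.0179). Its levels of 10.57, 10.71 and 11.30 (lowest, median and highest) in FVBN/APCmin lay above all of the 9.29, 9.91 and 10.29 in iPGC-1β/APCmin, a separation found in this direction for 0.884% of all genes.

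Lipoyl synthesis and the proteins that carry lipoic acid depend on Bola3 and Nfu1 function in humans. Of 6 tested genes 6 were higher and 1 passed, with a median of 0.52. Over all genes 48.6% were higher and 2.22% rose past the threshold. Dlat, the lipoylated core of pyruvate dehydrogenase, rose by 1.27 (SE 0.25, limma adjusted p = 0.0155), from 6.96 ± 0.21 to 8.23 ± 0.55 (SD, n = 6 each), with no overlap. Such a separation was found in this direction for 1.93% of all genes. Dlst, the matching core of oxoglutarate dehydrogenase, differed by 0.84 (limma adjusted p = 0.0646) and Lipt2, a lipoyl transferase, by 0.99 (limma adjusted p = 0.0764). Lipt2 was near background on control arrays, with lowest, median and highest log2 levels of 4.53, 5.18 and 5.44. With a detection p-value below 0.01 required on 6 arrays, 4 genes of this list were tested. All 4 were higher, with a median of 0.52. Lias, the lipoyl synthase that itself holds clusters, differed by 0.19 (95% confidence interval -0.14 to 0.51, limma adjusted p = 0.495).

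Cluster proteins of the cytosol and nucleus lay on both sides of 0, with 7 of 17 tested genes above 0 and a median of -0.11. Of these Xdh, the xanthine dehydrogenase of purine breakdown, fell by 1.45 (SE 0.30, limma adjusted p = 0.0231), with 5 of 6 iPGC-1β/APCmin arrays below every control array. Over all genes 1.23% fell past the threshold. The number of the 17 genes that fell was 0 without array 3, 5 or 10 and 3 without array 7. Without array 7, 1821 of 10967 genes passed, 848 of them higher, so the share of 1.23% does not apply to that fit. The DNA polymerase gene Pold1 differed by -0.84 (limma adjusted p = 0.133), the helicase gene Ercc2 by 1.03 (limma adjusted p = 0.160) and the glycosylase gene Mutyh by -0.62 (limma adjusted p = 0.167). Without arrays 6 and 7, 4 of the 17 were lower past the threshold and 1, Ercc2, higher, where 10.3% and 9.63% of all genes were. Ercc2 was near background on control arrays, at 4.66, 5.03 and 5.36 (lowest, median and highest). The undetected Lyrm4 probe ran from 4.41 to 5.00. On 4 of 6 iPGC-1β/APCmin arrays Ercc2 lay above every control array. With the lymphocyte covariate none of Ndufv1, Ndufv2, Etfdh, Mocs1, Dlat and Xdh passed (limma adjusted p = 0.100 to 0.393). The difference of Mocs1 was then -0.60, while those of Ndufv1, Ndufv2, Etfdh, Dlat and Xdh were 0.77, 1.12, 1.27, 1.20 and -1.53.

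Genes of iron uptake, transport, storage and export showed no call in limma, with 9 of 12 tested genes higher and a median of 0.32. Heph, the ferroxidase that works with iron export from enterocytes, differed by -0.64 (limma adjusted p = 0.134). Slc25a28, a mitochondrial iron carrier, differed by 0.32 (limma adjusted p = 0.138), the iron chaperone gene Pcbp2 by 0.36 (limma adjusted p = 0.176) and the iron regulatory protein gene Ireb2 by 0.52 (limma adjusted p = 0.190). At an unadjusted p below 0.05 were these same 4 genes. Over all genes 11.5% were higher at that level, and the share lower was not counted.

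**Figure D4:**
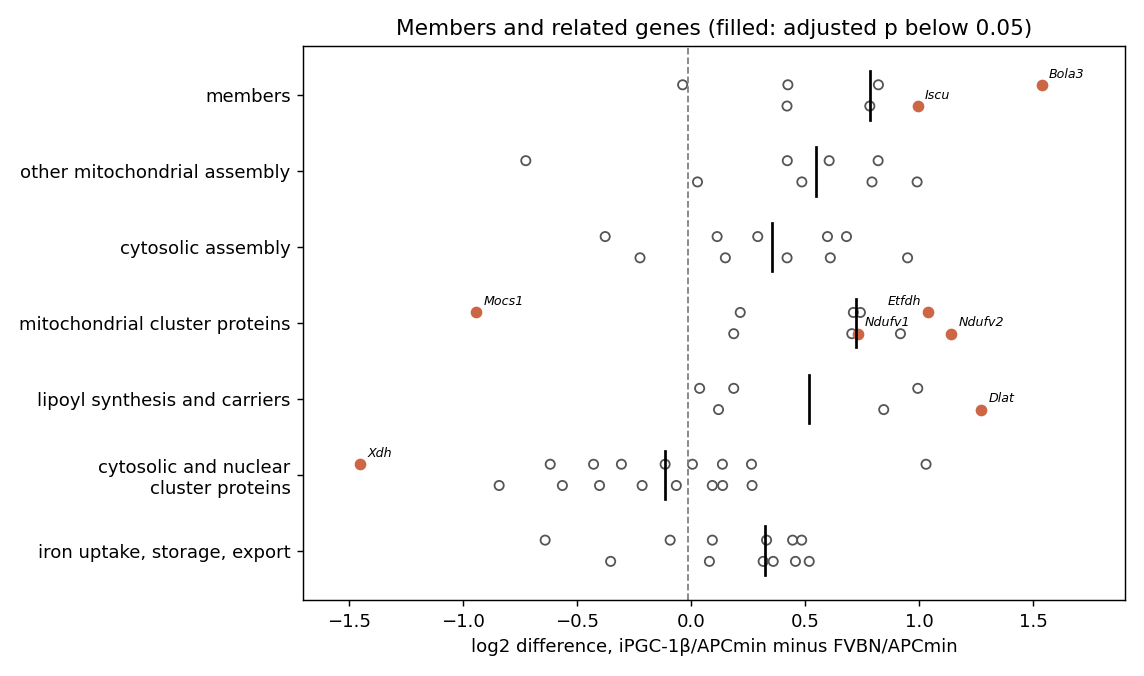
Log2 difference (horizontal axis, iPGC-1β/APCmin minus FVBN/APCmin) of each tested gene in the members and 6 related lists (vertical axis), filled and named where the limma adjusted p is below 0.05. Short bars are list medians and the dashed line is the median over all genes at -0.01, and the medians run from 0.78 for the members to -0.11 for cytosolic and nuclear cluster proteins.

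The 5 other named genes whose centred level ran nearest to the members' average over the 12 arrays were found by the root mean square difference. Mrpl43, of the mitochondrial ribosome, was nearest at 0.12 log2, then Cox4i1, a complex IV subunit, at 0.14, Pigx, of glycolipid anchor synthesis, at 0.15, Ecsit, a complex I assembly factor, at 0.15, and Tmem11, of the mitochondrial inner membrane, at 0.15. Among the members themselves Glrx5 was nearest to that average, at 0.17, and Bola3 and Nfs1 were farthest, at 0.60 and 0.49.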

How the data were processed

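Illumina bead arrays measured total RNA of 12 ileum tumours. Per the file headers, the authors deposited an unnormalized intensity for 25697 probes on each array, linear as its values show. The same deposited table holds a detection p-value per probe and array, per the file headers. A second deposited table holds intensity that the authors had quantile-normalized, as read from its values. The submitters' processing notes name GenomeStudio.

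The neqc function of limma 3.58.1 (R 4.3.3) was applied to the intensities. It estimates background through the detection p-values, adds an offset (16), normalizes by quantiles and returns log2 values. Probes detected (p-value below 0.05) on at least 4 of 12 arrays were kept (14827), and the probe with the highest mean stood for a gene. The genotypes were compared by lmFit and eBayes with trend, with Benjamini-Hochberg adjustment over 10967 genes. Single members were also compared by an exact permutation test, without adjustment of its p-values. The number of arrays limits the precision. The fit was tested on simulated data. Symbols missing from the table were sought among RefSeq synonyms (GRCm38.p6), and the 31 probes whose symbol had become a date kept their identifiers.

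Named were all members, for each related list the genes of lowest p (at most 4), and the 5 genes nearest to the members' mean level. Members, lists, tests and motifs were chosen with earlier results of these data known. Alternatives were other background corrections, normalizations, filters, probe rules, variance models and array weights, the authors' table, marker covariates and omitted arrays. Some listed genes are not reported here and were left out of the lists, their counts and medians.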

Additional observations from a re-analysis of the deposited data

How the results depend on the processing

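The number of members past the threshold upwards, 2 over all arrays, was 1 with a shift to a common 75th percentile (Isca1, while Iscu and Bola3 missed at limma adjusted p = 0.0641 and 0.0556), 0 with no filter, 0 with the lymphocyte covariate and 0 with the intestinal epithelium covariate. It was 4 with a detection p-value below 0.01 on 6 arrays, 4 with array weights and 4 without arrays 6 and 7 together, and ran from 0 to 4 when single arrays were left out. More genes are tested with no filter (18148) and fewer with the stricter one (9229); for the other settings the cause was not tested. No member passed downwards in any setting, and the median of the 7 members stayed between 0.65 and 0.91. Iscu, Hscb, Glrx5, Isca1, Bola3 and Nfu1 kept a positive difference in all 26 refits. Nfs1 turned to 0.0404 with the percentile shift and to 0.0666 with the mean of its probes, and ran from -0.0867 to 0.0415 when single arrays were left out. Over all genes, 378 calls became 5 to 2403 (5 with the lymphocyte covariate, 1093 with the epithelium covariate, 200 with no filter, 2403 with array weights, 1821 without array 7, 727 without array 6, 129 without array 3). Upward calls among the other mitochondrial assembly genes ran from 0 to 2 when single arrays were left out (2 without array 7), as did those of the cytosolic ones, lipoyl genes had 2 without array 6 or 7, and 1 iron gene fell without array 8. No paired analysis was possible because the titles number the arrays 1 to 12 across the genotypes, and the descriptions give all 12 the replicate number 1. Signal near background limits Hscb, and Lyrm4 gave no value. Low signal on control arrays also limits related genes such as Ercc2, Lipt2 and Ciao2a.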

Other observations

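The order of the iPGC-1β/APCmin arrays differed between the related lists. The level of the other mitochondrial assembly genes, each centred over the 12 arrays, was 0.27, 0.84 and 0.63 on arrays 10 to 12. It was -0.25 to -0.05 on arrays 7 to 9, which lay within the control range of -0.50 to 0.19. The cytosolic assembly genes stood at 0.09, 0.70 and 0.46 on arrays 10 to 12 and at -0.15 to -0.06 on arrays 7 to 9, against -0.52 to 0.21 on the controls, a range that holds array 10. Genes for mitochondrial cluster proteins stood at 0.27, 0.68 and 0.42 on arrays 10 to 12 and at 0.13, 0.29 and -0.15 on arrays 7 to 9, so array 8 was above array 10. Genes of lipoyl synthesis and its carriers were instead highest on array 8, at 0.59, with all 6 arrays labelled iPGC-1β/APCmin at 0.16 or more and all controls at -0.10 or less. Isca1, too, was highest on array 8. Iron handling genes were highest on arrays 7 to 9, at 0.24, 0.34 and 0.24, and lowest on array 12, at -0.31. The labels give no property that separates arrays 7 to 9 from arrays 10 to 12, and these levels were not tested against each other.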
